A study of Mus musculus with 10 samples.

Results

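The imprinted genes of mouse embryonic stem cell (ESC) lines were examined in 10 lines, 5 derived from blastocysts of mothers fed a low protein diet (LPD, 9% casein) and 5 from mothers fed a normal protein diet (NPD, 18% casein). A list of 36 imprinted genes was taken by name, 34 of which were among the 20206 genes of the table, and 30 of these had a mean normalized value of at least 10 over the lines and were tested among 14354 genes. The list is called protein-coding, although H19 and Meg3 on it are long non-coding RNAs; these were the 2 members without a value and were not analysed here. Kcnq1, Asb4, Dcn and Rtl1 were below the mean of 10 and were described without a test.

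All lines were wild-type and labelled male, and both parents were C57BL/6. The mothers were 7 to 9 weeks old and ate either diet, matched for calories, from the morning of the vaginal plug until embryonic day 3.5. The lines were derived on feeder cells, and their RNA was taken after culture in feeder-free medium. The LPD set comprises lines 1, 4, 6, 20 and 40, and the NPD set comprises lines 8, 15, 21, 36 and 51. Each line stands for a separate derivation and was counted as 1 replicate, and per the study's methods no mother gave more than 1 of the analysed lines. With both parents of the same strain and expression summed per gene, no value separates the maternal from the paternal allele.

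Imprinted genes are transcribed mainly from the allele of one parent, according to DNA methylation laid down in the egg or the sperm at imprinting control regions. Most of them lie in clusters in which a long non-coding RNA or an insulator acts on several neighbours, and many of the paternally expressed genes promote growth while many of the maternally expressed genes restrain it. Methylation at these regions is kept through preimplantation development, when the genome at large loses it, and is known to drift in cultured ESC lines. Whether a gene escapes or loses its imprint cannot be read from its total level, and methylation was not measured in these libraries.

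Depth differed among the lines. The NPD lines held 20312458 to 23183206 read equivalents (summed value over what a single read was worth) and the LPD lines 5852836 to 24246590, the lowest being LPD line 4, where a single read counted for 2.88 units. All 12 pluripotency markers were at 1675 or more on average, with none called between the diets. The 4 Y-linked genes summed to 152 in NPD line 15 and 701 in LPD line 4, against 3706 to 4305 in the other lines, and the 334 X-linked genes were a median of 0.49 above their 10-line medians on the log2 scale in NPD line 15. In the other lines, LPD line 4 among them, that median was within 0.06 of 0. The Y-linked values of both lines are thus low for the male label, with raised X-linked genes in NPD line 15 alone, and the counts below are also given without both lines. The 16 fibroblast markers, which could come from feeder cells, summed to 739 to 4608 in the LPD lines and 794 to 6959 in the NPD lines, 5 of the 16 being at 0 in at least 1 line. The 10 trophectoderm markers summed to 3887 to 11842 in the LPD lines and 3673 to 7079 in the NPD lines. The 10 primitive endoderm markers summed to 3527 to 22213 in the LPD lines and 2257 to 16641 in the NPD lines. All 10 of these were higher in LPD lines (median log2 fold change 0.43), and 10 of the 13 fibroblast markers tested were lower (median -0.85), with 0 of either list called at an adjusted p under 0.1 or an unadjusted p under 0.05 with limma. Their part in the diet differences below was not tested, except where the fibroblast sum is given as a covariate. Fewer cells of a type and less RNA per cell cannot be told apart in these bulk libraries.

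A few short stretches of genome are shown because the results turn on the genes beside them: the gap between the exons of Peg3 and Usp29 in GENCODE M21, which varied together over the lines, and the stretches before Slc22a18 and Ascl2, which are among the members with the smallest p between the diets. They come from the RefSeq promoter windows (GRCm38.p6, 250 bases before to 50 after an annotated start), limited to the part outside exons of GENCODE M21, and capitals mark the CpG dinucleotides, at which DNA is methylated.
Peg3, minus strand, chr7:6730432-6730577: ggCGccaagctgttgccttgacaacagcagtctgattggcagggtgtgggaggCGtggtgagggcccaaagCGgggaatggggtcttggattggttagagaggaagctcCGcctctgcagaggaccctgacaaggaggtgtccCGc
Slc22a18, plus strand, chr7:143473539-143473735: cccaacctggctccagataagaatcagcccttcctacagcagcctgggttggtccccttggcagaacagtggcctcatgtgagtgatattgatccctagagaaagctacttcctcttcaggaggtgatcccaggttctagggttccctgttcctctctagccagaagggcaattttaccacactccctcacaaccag
Ascl2, minus strand, chr7:142969265-142969514: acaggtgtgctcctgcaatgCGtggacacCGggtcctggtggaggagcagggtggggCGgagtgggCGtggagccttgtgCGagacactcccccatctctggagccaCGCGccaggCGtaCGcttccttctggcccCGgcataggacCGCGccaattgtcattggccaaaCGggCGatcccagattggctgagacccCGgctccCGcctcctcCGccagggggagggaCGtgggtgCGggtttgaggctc
RefSeq's own Peg3 and Usp29 genes reach into the first of these stretches. The full windows of 300 bases held 13 CpG for Peg3, 2 for Slc22a18, 23 for Ascl2 and 26 for Phlda2, whose window lies wholly in GENCODE M21 exons and is not printed. The 45 windows of the 27 members that had one held a median of 14 CpG, against 7 in all 32851 windows searched. The letters TGCCGC, the core recognized by ZFP57 when methylated, were searched on both strands and stood in 10 of the 45 member windows (22.2%) and in 11.6% of all windows. These letters contain a CpG, and the shares were not compared at equal CpG content. The Mest windows that held the letters overlap each other and were counted separately. A match is only a match of letters, and the imprinting control regions lie largely outside these windows.

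Between the diets, no imprinted gene passed the adjusted threshold. With limma on log2(value + 1), 0 of the 30 members had an adjusted p under 0.1, as for all genes tested (0 of 14354), and the smallest adjusted p of a member was 0.681. At an unadjusted p under 0.05, 3 members differed, 2 higher and 1 lower in LPD lines. That is 10% of the members, beside a background of 5.02% of all genes tested (2.84% higher and 2.18% lower). The count was 2 without LPD line 4 and NPD line 15, 1 without LPD line 4 or LPD line 6 alone, and 5 without LPD line 40. The members were 15 higher and 15 lower, with a median log2 fold change (LPD against NPD) of -0.01, and the median of all genes was 0.00. Of the 17 members labelled paternally expressed 6 were higher and 11 lower, with a median of -0.10. Of the 12 members labelled maternally expressed 8 were higher and 4 lower, with a median of 0.04, and all 3 of those under 0.05 were among them. These parental labels were assigned to each gene by annotation. The allele expressed in these lines was not measured and may differ from the label.

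**Figure D1:**
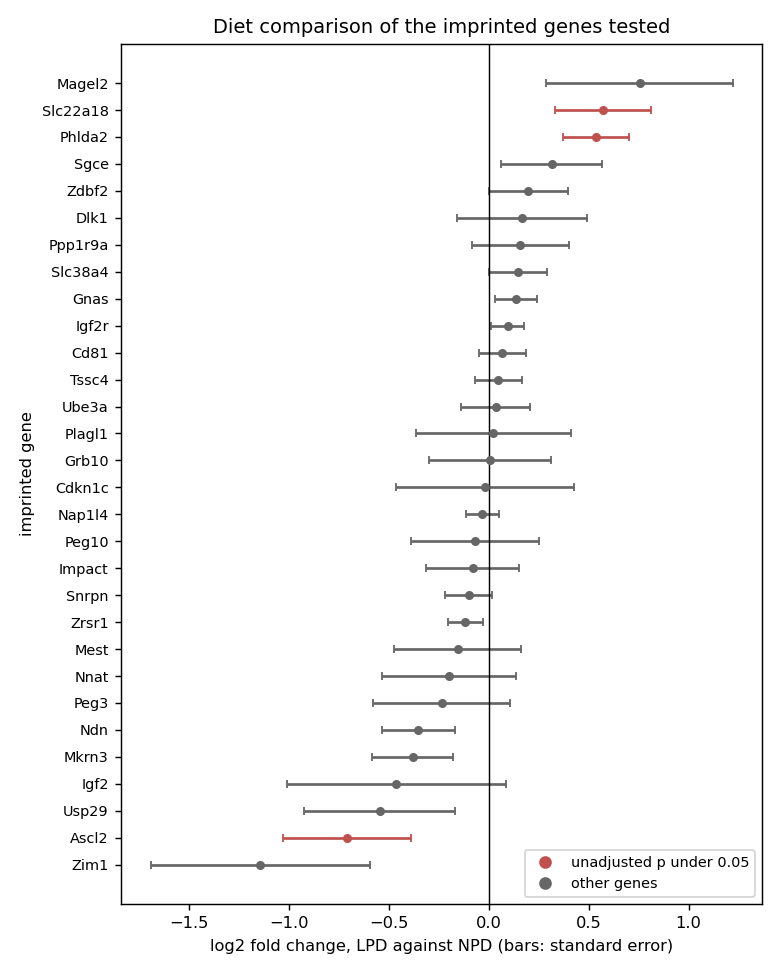
Log2 fold change (LPD against NPD, x axis) of each of the 30 imprinted genes tested, ordered from the lowest at the bottom to the highest at the top, with bars of 1 standard error; red marks an unadjusted p under 0.05. The values run from -1.14 for Zim1 to 0.76 for Magel2, with 15 genes on each side of 0, and only Phlda2, Slc22a18 and Ascl2 are red.

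The genes under 0.05 were Phlda2, Slc22a18 and Ascl2, which lie in the Kcnq1 cluster on chromosome 7, a maternally expressed domain controlled by the paternally expressed non-coding RNA Kcnq1ot1. Phlda2 (chr7:143501545-143503150) encodes a PH domain protein that restrains growth of the placenta. Its normalized values were 491.9, 424.0, 752.6, 667.9 and 528.4 in LPD lines 1, 4, 6, 20 and 40. In NPD lines 8, 15, 21, 36 and 51 they were 316.3, 482.9, 389.5, 374.1 and 387.0. LPD lines 6 and 20 were highest, and LPD line 4 alone among the LPD lines fell inside the NPD range, below NPD line 15. Means were 573 ± 134 (SD, n = 5) for LPD against 390 ± 59.8 (SD, n = 5) for NPD, giving a log2 fold change of 0.54 (SE 0.16, unadjusted p = 0.0064 and adjusted p = 0.681 with limma). The two-sided exact permutation test over all assignments of 5 and 5 lines gave p = 0.016. Without LPD line 4 and NPD line 15 the difference was 0.72 (SE 0.16), and it kept an unadjusted p under 0.05 whichever line was left out.

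Slc22a18 (chr7:143473736-143499334), a transporter of the organic cation family that lies next to Phlda2, was the only member with every LPD line above every NPD line, which 0.523% of all genes tested showed. It was measured at 53.5, 70.1, 65.2, 54.3 and 54.3 in LPD lines 1, 4, 6, 20 and 40. The NPD lines 8, 15, 21, 36 and 51 held 50.3, 51.03, 41.3, 34.5 and 26.0. The groups did not overlap, but the lowest LPD line exceeded the highest NPD line by only 2.42 units, which is 3.2 reads of NPD line 15. The means were 59.5 ± 7.67 (SD, n = 5) and 40.6 ± 10.7 (SD, n = 5), a log2 fold change of 0.57 (SE 0.24, unadjusted p = 0.033, adjusted p = 0.953 with limma). The exact permutation p was 0.0079, the smallest that 5 against 5 lines can give. The unadjusted p was above 0.05 when LPD line 4, LPD line 6, NPD line 36 or NPD line 51 was left out, at 0.071, 0.061, 0.069 and 0.092.

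Ascl2 (chr7:142966829-142969264), a basic helix-loop-helix factor required for the spongiotrophoblast of the placenta, was lower in LPD lines. The values were 40.3, 41.2, 23.6, 32.9 and 59.5 in LPD lines 1, 4, 6, 20 and 40. Those of NPD lines 8, 15, 21, 36 and 51 were 48.2, 121.5, 60.4, 44.3 and 60.4. NPD line 15 was far above the rest, and 4 LPD lines lay below every NPD line while LPD line 40 lay among them. The means were 39.5 ± 13.2 (SD, n = 5) and 66.9 ± 31.3 (SD, n = 5), a log2 fold change of -0.71 (SE 0.32, unadjusted p = 0.045, adjusted p = 0.987 with limma, exact permutation p = 0.040). Without NPD line 15 it was -0.47 with an unadjusted limma p of 0.128, and without LPD line 6 it was -0.55 with 0.109. Leaving out LPD lines 1, 4 or 20 or NPD lines 21 or 51 also brought it above 0.05, at 0.056 to 0.083. It was also above 0.05 with array weights (-0.61), with the fibroblast sum as a covariate (-0.70) and without LPD line 4 and NPD line 15 together (-0.50).

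None of the other tested members of the Kcnq1 cluster had an unadjusted p under 0.05. Cdkn1c, the cell cycle inhibitor p57, had a log2 fold change of -0.02 with a wide error (SE 0.45). Tssc4, whose exons overlap those of Trpm5 on the other strand, had 0.05 (SE 0.12). The tetraspanin Cd81 had 0.07 (SE 0.12) and the histone chaperone Nap1l4 -0.03 (SE 0.08). Of the 11 other genes tested within 500000 bases of these members, 6 were higher and 5 lower. Cars, which encodes the cysteinyl-tRNA synthetase and lies beyond Nap1l4, was the one with an unadjusted p under 0.05 (log2 fold change 0.28, SE 0.10). Phlda2 and Slc22a18 had a Pearson r of 0.52 over the 10 lines (permutation p = 0.12, adjusted p = 0.19) and a Spearman rho of 0.73 (permutation p = 0.020, adjusted p = 0.074). With the diet means subtracted r was -0.01.

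**Figure D2:**
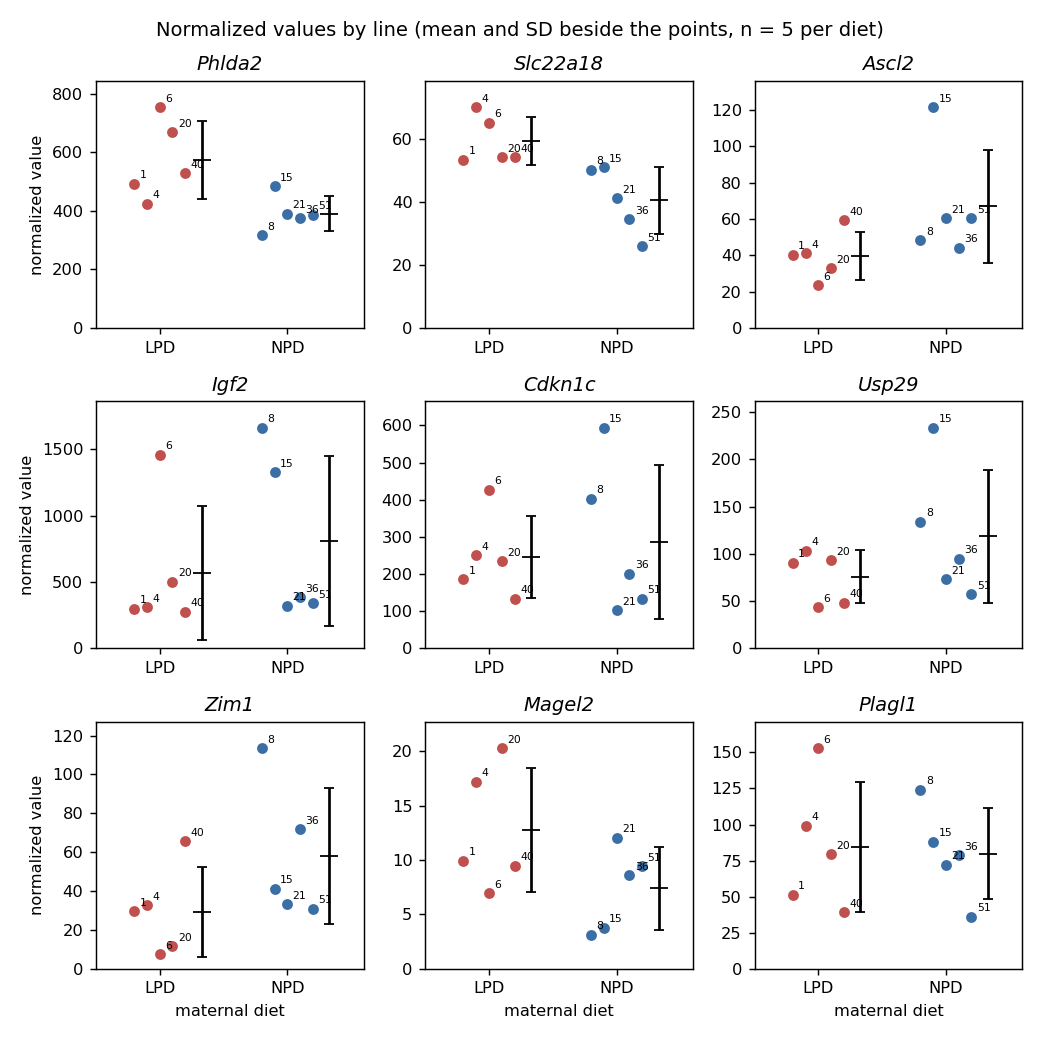
Normalized values (y axis, linear from 0) of the 9 imprinted genes with an unadjusted p under 0.05 between the diets or a range of at least 2 on the log2 scale over the lines, in LPD (red) and NPD (blue) lines, each point labelled with its line number; the bar beside each group is the mean ± SD (n = 5). Slc22a18 is the panel without overlap between the diets, and Igf2 shows 3 lines (LPD line 6, NPD lines 8 and 15) far above the other 7.

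The imprinted genes had a wider spread among the lines than genes at large. The median SD of log2(value + 1) over the 10 lines was 0.43 for the members and 0.27 for all genes tested, and 22 of the 30 members had an SD above that median of all genes. Within the diets the median SD was 0.45 for members and 0.27 for all genes, so the wider spread was present within the diets. The highest line exceeded the lowest by at least 1 on the log2 scale for 20 of the 30 members (background 41.8%), and by at least 2 for 7 of them, or 23.3% (background 14.1%). Without LPD line 4 and NPD line 15 a range of at least 2 was found for 5 members, beside 10.9% of all genes. Of the 300 member values, 22 (7.33%) lay more than 1 from the median of their gene, against 4.34% of all values. These are descriptions, without a test.

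Spread depends on level, so the members were also read against genes of a similar level. With means from 10 to 100, 5 of 8 members had a range of at least 2, beside 42.5% of all such genes. With means from 100 to 1000 it was 2 of 8, beside 4.99%, and these were Igf2 and Cdkn1c. None of the 14 members with means of 1000 or more reached it, beside 0.938% of all genes at that level. Counting error alone gives an SD of 0.08 for Igf2 and 0.11 for Cdkn1c, but 0.31 for Zim1 and 0.53 for Magel2, so the low genes were measured less precisely.

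**Figure D3:**
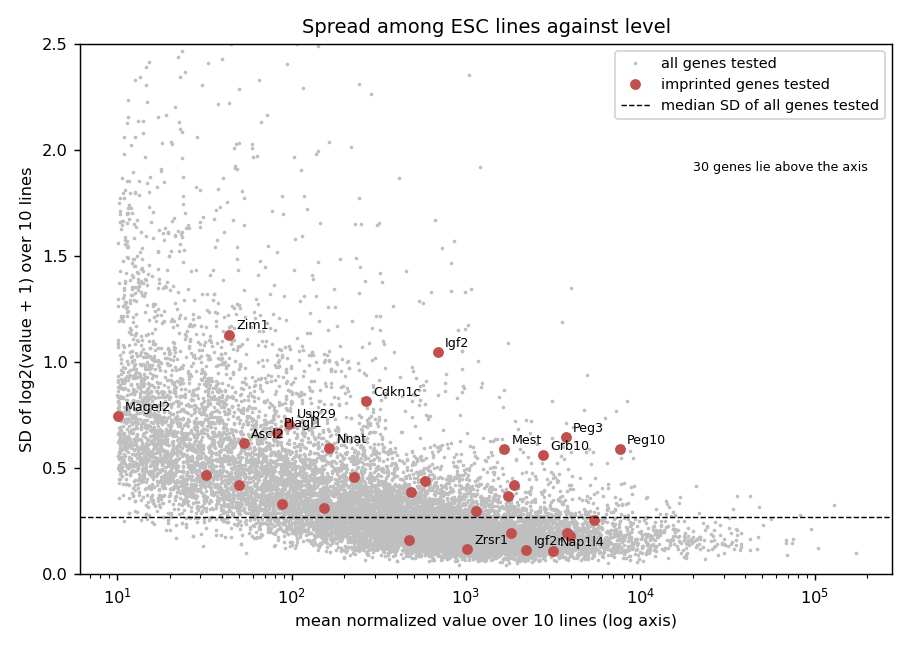
SD of log2(value + 1) over the 10 lines (y axis) against the mean normalized value (x axis, log scale) for the 14354 genes tested (grey) and the 30 imprinted genes among them (red, with the most and least variable named); the dashed line is the median of all genes, 0.27, and 30 genes lie above the axis. Igf2 and Cdkn1c stand above most genes of their level, whereas Nap1l4, Igf2r and Zrsr1 lie under the line.

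Igf2 (chr7:142650766-142666816), the paternally expressed fetal growth factor, was among the most variable members, with an SD of 1.05 that exceeded that of 96.1% of all genes tested. Its values were 299.9, 310.2, 1459.3, 504.2 and 275.5 in LPD lines 1, 4, 6, 20 and 40. NPD lines 8, 15, 21, 36 and 51 held 1662.6, 1328.9, 322.9, 386.6 and 340.6. LPD line 6 and NPD lines 8 and 15 formed a high cluster and the other 7 lines lay between 275.5 and 504.2, so that both diets had lines at both levels, and the ratio of the highest to the lowest line was 6.03. The diet difference of -0.46 (SE 0.55, unadjusted p = 0.416, adjusted p = 0.994 with limma) was smaller than the spread of 1.08 within diets. It ran from -0.88 without LPD line 6 to -0.11 without NPD line 8, and was -0.05 without LPD line 4 and NPD line 15. Exons of Igf2 overlap those of Gm49394, a protein-coding gene on the same strand that is also in the table, so part of its reads may have been counted there.

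The 3 lines high for Igf2 were also the 3 with the highest sums of fibroblast markers, at 4608 in LPD line 6, 2861 in NPD line 8 and 6959 in NPD line 15, against 739 to 1622 in the other lines. The collagen genes Col1a1 and Col1a2 were the largest parts of these sums. They were highest in the 3 lines, as were Col3a1, Col5a2, Fbn1, Pdgfrb and Prrx1. Other markers differed: Twist1 was highest in LPD line 20 (485), and Thy1 and Col6a3 were higher in LPD line 4 than in NPD line 8. These 3 lines also had the 3 highest sums of trophectoderm markers, at 11842, 7041 and 7079 in the same order, against 3673 to 5442. Krt7, Krt8 and Krt18 were each highest in them, but not every trophectoderm marker was. Cdx2 was highest in LPD line 20 (97.9) and at 9.11 in NPD line 15, and Eomes was highest in NPD line 21 (412). The same 3 lines had the 3 lowest sums of primitive endoderm markers, at 3527, 5522 and 2257, against 9348 to 22213. Of these lines NPD line 8 had the lowest fibroblast sum but the highest Igf2, so the order differed inside the cluster. Because the lines fall into clusters no pooled correlation is given. Within the 7 lower lines Pearson r between Igf2 and the fibroblast sum was 0.65 (exact permutation p = 0.106) and Spearman rho 0.71 (exact permutation p = 0.088). With the fibroblast sum as a covariate the diet difference of Igf2 was 0.00 (SE 0.25). The part of feeder or other cells in the Igf2 level was not tested.

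Other members act on the same growth pathway. Igf2r, the maternally expressed receptor that clears IGF2 for degradation, was among the steadiest members, with values of 2190 to 2466 in LPD and 1839 to 2325 in NPD lines and an SD of 0.11, higher than that of only 5.29% of genes. Grb10, an adaptor that restrains insulin and IGF receptor signalling, varied from 1798 to 4150 in LPD lines and from 1444 to 4102 in NPD lines. LPD lines 6 and 20 and NPD line 8 were its highest lines, and its diet difference was 0.01 (SE 0.31). Plagl1, a zinc finger factor that acts on other imprinted genes, held 51.4, 99.3, 152.8, 79.2 and 39.0 in LPD lines 1, 4, 6, 20 and 40. NPD values, lines 8, 15, 21, 36 and 51, were 124.1, 88.1, 72.1, 78.9 and 35.99. LPD line 6 and NPD line 8 were highest for it as they were among the highest for Igf2, but NPD line 15 was not, and the diet difference was 0.02 (SE 0.39).

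Cdkn1c (chr7:143458339-143461050) was highest in the lines with the highest fibroblast sums, which also had the highest trophectoderm sums. As given above, not every marker of either list followed its sum. Cdkn1c was measured at 186.0, 250.8, 426.7, 234.3 and 133.5 in LPD lines 1, 4, 6, 20 and 40. In NPD lines 8, 15, 21, 36 and 51 it was at 403.2, 593.5, 103.4, 201.0 and 133.6. NPD line 15, LPD line 6 and NPD line 8 were again highest, and 1 line in each diet lay near 133. Over the 10 lines Pearson r with the log2 fibroblast sum was 0.91 (permutation p = 2.3e-04, adjusted over the 11 pairs computed 0.0013) and Spearman rho 0.88 (adjusted permutation p = 0.0087). It was 0.86 without NPD lines 15 and 21, the farthest from the median of Cdkn1c, and 0.94 with the diet means subtracted. Within the 7 lines other than LPD line 6 and NPD lines 8 and 15 it was 0.55 (exact permutation p = 0.198), with a Spearman rho of 0.64 (exact permutation p = 0.139). The sign of its diet difference was not settled, being 0.36 (SE 0.19) with the fibroblast sum as a covariate, 0.29 without LPD line 4 and NPD line 15, and 0.32 without NPD line 15 alone. What part of the Cdkn1c level came from other cells was not tested.

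**Figure D4:**
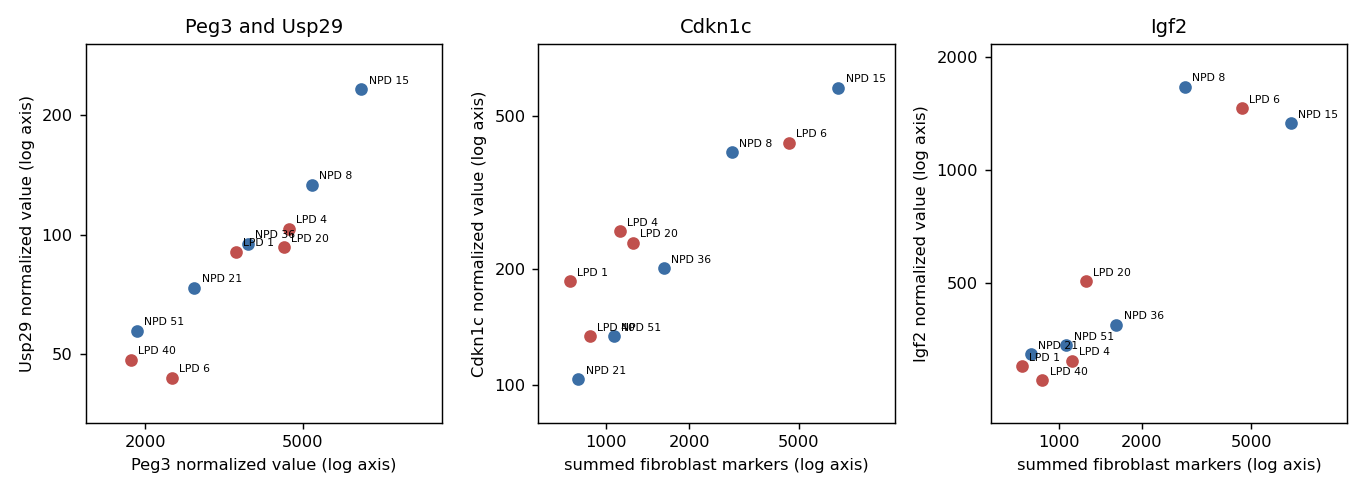
Left, Usp29 against Peg3; middle, Cdkn1c against the summed fibroblast markers; right, Igf2 against the same sum, all in normalized values on log axes, with 1 labelled point per line (red LPD, blue NPD). Usp29 rises with Peg3 (r = 0.94) and Cdkn1c with the fibroblast sum (r = 0.91), while for Igf2 the LPD line 6 and NPD lines 8 and 15 form a separate cluster.

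The Peg3 cluster on chromosome 7 held a pair of genes that varied together and one that did not. Peg3, a zinc finger factor involved in maternal behaviour and growth, and Usp29, a deubiquitinase, are read in opposite directions from starts 147 bases apart, across the stretch printed above, and both are paternally expressed. Peg3 values were 3387, 4613, 2341, 4485 and 1839 in LPD lines 1, 4, 6, 20 and 40. They were 5271, 7043, 2665, 3632 and 1904 in NPD lines 8, 15, 21, 36 and 51. NPD lines 15 and 8 were highest and LPD line 40 and NPD line 51 lowest. Usp29 held 90.6, 103.4, 43.5, 93.1 and 48.3 in LPD and 133.8, 233.2, 73.4, 94.9 and 57.2 in NPD lines in the same order. The 2 highest lines were the same as for Peg3, and LPD lines 6 and 40 and NPD line 51 were the 3 lowest for both genes. Pearson r was 0.94 (permutation p = 4.0e-05, adjusted p = 4.4e-04) and Spearman rho 0.95 (adjusted permutation p = 0.0013). It was 0.90 without LPD line 40 and NPD line 15, 0.92 without LPD line 4 and NPD line 15, and 0.96 with the diet means subtracted. Per kilobase of the longest transcript Peg3 was at 428 and Usp29 at 12.9 on the scale of normalized values.

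Zim1, a maternally expressed zinc finger gene beside Peg3, had the widest range of the 30 members tested, a ratio of 15.2 between the highest and the lowest line. Its values were 29.6, 32.8, 7.44, 11.5 and 65.7 in LPD lines 1, 4, 6, 20 and 40. Those of NPD lines 8, 15, 21, 36 and 51 were 113.4, 41.2, 33.2, 71.7 and 30.9. LPD lines 6 and 20 were lowest and NPD line 8 highest, with the diets overlapping. The log2 fold change was -1.14 (SE 0.55, unadjusted p = 0.058, adjusted p = 0.994 with limma, exact permutation p = 0.095), and Pearson r with Peg3 was 0.19 (adjusted permutation p = 0.66). Leaving out LPD line 40 took the difference to -1.52 with an unadjusted limma p of 0.012, NPD line 21 to -1.30 with 0.0499 and NPD line 51 to -1.32 with 0.045. The difference was smaller without LPD line 6 (-0.77), NPD line 8 (-0.86), LPD line 20 (-0.91) or NPD line 36 (-1.02), with an unadjusted p above 0.1 in each. With the fibroblast sum as a covariate it was -1.28 with 0.041.

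The genes of the Snrpn-Ndn domain, the mouse counterpart of the Prader-Willi and Angelman region, differed in how steady they were. Of the 5 tested, 4 had an SD above the median of all genes, and Snrpn lay below it. Snrpn, a splicing protein gene and the most abundant of them per kilobase (867), ranged from 1535 to 2049 in LPD and from 1563 to 2355 in NPD lines. Its exons overlap those of Gm38393, a protein-coding gene on the same strand that is also in the table, so part of its reads may have been counted there. Ube3a, a ubiquitin ligase silenced on the paternal allele in neurons, had a diet difference of 0.03 (SE 0.17). Ndn, a MAGE family gene, was at 145.2, 129.3, 133.7, 111.2 and 148.7 in LPD and 167.8, 253.4, 162.9, 136.1 and 150.5 in NPD lines in their order, a difference of -0.35 (SE 0.18, unadjusted limma p = 0.075, exact permutation p = 0.032). The makorin gene Mkrn3 had -0.38 (SE 0.20). For both genes the adjusted p with limma was 0.994. Magel2, another MAGE gene and the lowest of the domain per kilobase (2.18), held 9.94, 17.2, 6.97, 20.3 and 9.49 in LPD lines 1, 4, 6, 20 and 40. For NPD lines 8, 15, 21, 36 and 51 the values were 3.12, 3.79, 12.1, 8.64 and 9.41. NPD lines 8 and 15 were lowest and near the floor of 3 reads, which is 2.34 and 2.28 there. Its log2 fold change was 0.76 (SE 0.47, unadjusted p = 0.131, adjusted p = 0.994 with limma).

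Ndn and Magel2, which are neighbours with the same paternal expression, had a negative Pearson r over the lines. LPD lines 6 and 40 and NPD lines 21 and 36 nevertheless lay on the same side of the median for both genes. Magel2 was measured with little precision, with an SD of 0.53 from counting error alone beside 0.74 over the lines. Pearson r of the pair was -0.74 (permutation p = 0.012, adjusted p = 0.042), but Spearman rho was -0.61 (adjusted permutation p = 0.15). Without LPD line 20 and NPD line 15, the farthest from the median of Ndn, r was weaker at -0.51 (permutation p = 0.19). It was between -0.81 and -0.65 with any 1 line left out. With the diet means subtracted r was -0.62, and without LPD line 4 and NPD line 15 it was -0.66. Snrpn and Ndn had an r of 0.65 (adjusted permutation p = 0.089) that was 0.39 without LPD line 4 and NPD line 15. The 2 lines named last are also those that stand apart in the Y-linked genes.

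In the Peg10-Sgce domain on chromosome 6, Peg10, a retrotransposon-derived gene needed for the placenta, was the most abundant per kilobase (1141). Its values were 4515, 7672, 6509, 11609 and 5763 in LPD lines 1, 4, 6, 20 and 40. In NPD lines 8, 15, 21, 36 and 51 they were 15054, 9646, 4737, 5037 and 5531. NPD line 8 and LPD line 20 were highest, so each diet had lines at both ends, and the diet difference was -0.07 (SE 0.32). Sgce, the epsilon-sarcoglycan gene whose start lies 99 bases from that of Peg10 on the other strand, ranged from 129 to 322. Pearson r of the pair was 0.68 (permutation p = 0.032, adjusted p = 0.088), and Sgce was also highest in NPD line 8. Ppp1r9a, which encodes the actin-binding neurabin-1, was at 1118 in LPD line 4, the shallowest line, and at 412 to 684 in the other lines. Asb4, a SOCS box gene, was near absent, with 5 lines at or under 3 reads: 1.43, 0, 2.61, 5.63 and 1.48 in LPD and 3.96, 5.69, 1.41, 8.77 and 5.61 in NPD lines.

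In the Dlk1-Meg3 domain on chromosome 12, Dlk1 and Rtl1 were low. Dlk1, a membrane protein related to Notch ligands, was at 31.4, 26.9, 58.4, 31.3 and 23.5 in LPD lines 1, 4, 6, 20 and 40. In NPD lines 8, 15, 21, 36 and 51 it was at 39.1, 31.8, 15.7, 30.4 and 34.0. LPD line 6 was highest and NPD line 21 lowest, and the diet difference was 0.16 (SE 0.33). Rtl1, a retrotransposon-derived gene needed for placental capillaries, was at 6.12, 11.5, 6.97, 13.5 and 6.33 in LPD and 9.36, 13.7, 3.02, 9.35 and 13.7 in NPD lines. NPD line 21 was thus lowest for both Dlk1 and Rtl1. Each gene has a second entry in the table with the same values, under an identifier outside the annotation used, and was counted once. Pearson r between Dlk1 and the fibroblast sum was 0.63 (permutation p = 0.048, adjusted p = 0.089), and it was 0.43 without LPD line 6 and NPD line 21.

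Among the members that lie alone in their domains, Mest, a hydrolase-like growth gene, was highest in LPD line 20 (3193) and NPD line 36 (2581) and between 933 and 2011 in the others. Its exons overlap those of Copg2 on the other strand, and whether the counting used strand is not given in the sources used here. The membrane proteolipid gene Nnat was lowest in NPD line 21 (72.1) and highest in NPD line 8 (257). Impact, a regulator of translation, ranged from 1243 to 2736. Zdbf2 ranged from 1137 to 2585, and its lowest and highest lines, LPD lines 1 and 20, were those of Impact as well. Log2 ranges were narrower for the amino acid transporter gene Slc38a4 (4374 to 7405) and the G protein gene Gnas (3384 to 4625). The same held for the splicing gene Zrsr1 (889 to 1125). In that order the SDs were 0.26, 0.18 and 0.12, higher than those of 47.1%, 25.3% and 6.05% of all genes tested. Gnas totals merge transcripts of maternal, paternal and both alleles. Exons of Gnas overlap those of Gm20721, and exons of Zrsr1 those of Commd1, in each case on the other strand. The diet differences of Slc38a4, Gnas and Zrsr1 were 0.15 (SE 0.14), 0.14 (SE 0.11) and -0.12 (SE 0.09). Dcn, the matrix proteoglycan decorin and itself a fibroblast product, was at 33.5 in NPD line 15 and 15.7 in LPD line 6, the lines with the highest fibroblast sums. It was at 0 in 4 of the other 8 lines, among them NPD line 8, which had the next highest fibroblast sum. In the rest it was at most 3.88. The potassium channel gene Kcnq1 was listed at 0 to 3.45, with 7 lines at or under 3 reads.

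**Figure D5:**
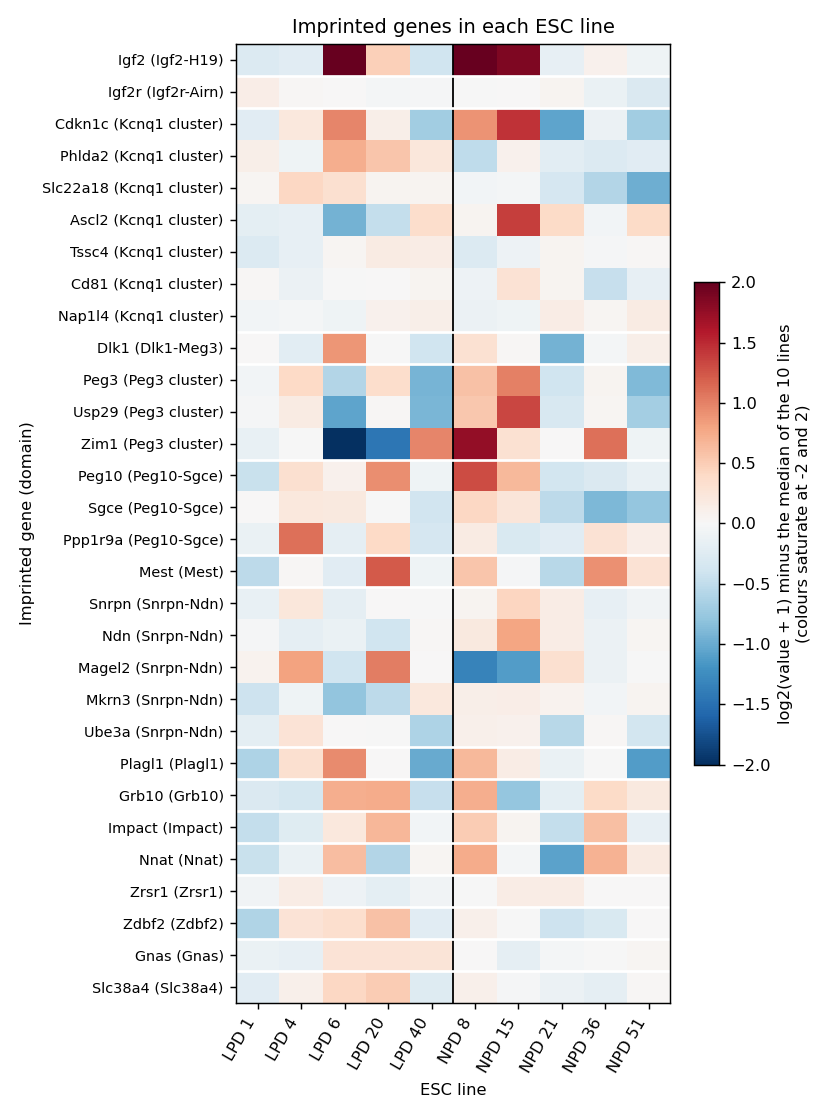
Heat map of the 30 imprinted genes tested (rows, grouped by domain) in the 10 ESC lines (columns, LPD left of the black line and NPD right of it); colour is log2(value + 1) minus the median of the 10 lines, red above and blue below, saturating at -2 and 2. Colour varies more by line than by diet. NPD line 15 has 5 genes more than 1 above the median (3.46% of all genes there), and NPD line 8 has 3 (1.63%).

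Read by line, deviations gathered in a few lines. NPD line 15 was more than 1 above the median for 5 of the 30 members (Igf2, Cdkn1c, Ascl2, Peg3 and Usp29), or 16.7%, beside 3.46% of all genes in that line, and more than 1 below for Magel2. This line also stands apart in its low Y-linked and raised X-linked genes, as given above. NPD line 8 was more than 1 above for Igf2, Zim1 and Peg10 (1.63% of all genes there) and more than 1 below for Magel2 (1.92%). LPD line 20 was likewise above for Mest and Magel2 (1.73%) and below for Zim1 (2.81%). LPD line 6 was likewise above for Igf2 (3.56%) and below for Usp29 and Zim1 (4.27%). LPD line 20 was the highest line for 8 members (14.4% of all genes were highest there), NPD line 15 for 7 (12.1%) and NPD line 8 for 5 (7.66%), whereas NPD lines 21 and 36 were highest for none. LPD line 1 had no member more than 1 from the median. High and low lines occurred in both diets.

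The enzymes and factors linked to setting, keeping or removing imprints were expressed in every line. Of the 25 such genes all were tested, with 7 higher and 18 lower in LPD lines and a median of -0.10, and 0 passed the adjusted threshold with limma. At an unadjusted p under 0.05, 4 were lower and 0 higher, beside the background of 2.18% lower. The number lower was 1 without LPD line 40, NPD line 36 or NPD line 8 and with the fibroblast sum as a covariate or no trend in limma, and 5 with quantile normalization or equal totals. It was 2 without LPD line 1, LPD line 4 or NPD line 15, and 3 without LPD line 4 and NPD line 15 together. Kdm1b was among those lower in all of these settings. Kdm1b, a histone H3 lysine 4 demethylase needed to set maternal imprints in the egg, was at 311 ± 34.2 (SD, n = 5) with LPD against 402 ± 42.8 (SD, n = 5) with NPD, a log2 fold change of -0.37 (SE 0.12, unadjusted p = 0.0082, adjusted p = 0.734 with limma). The paired H3 lysine 9 methyltransferase genes Ehmt1 and Ehmt2 had -0.23 (SE 0.10) and -0.20 (SE 0.09), and the methylcytosine dioxygenase gene Tet2, named because it completes the count, had -0.19 (SE 0.09). Zfp57 and Trim28, which keep methylation at imprinted regions, had 0.02 (SE 0.09) and -0.13 (SE 0.14). The maintenance methyltransferase Dnmt1 had -0.13 (SE 0.08).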

How the data were processed

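RNA sequencing of 10 mouse ESC lines was analysed, with each line as 1 replicate and the diet taken from the labels. The authors trimmed reads with cutadapt and estimated transcript abundance with Salmon on GRCm38 transcripts (the submitters' notes also name sleuth 0.30.0). The table the authors deposited gives each gene's signal, a normalized estimated count that is not whole, so no count model was used. How transcripts were summed to genes is not given in the sources used here. All columns had a line (0 without one). Of 20206 genes, 19891 matched GENCODE M21 and 315 did not.

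The main test was limma 3.58.1 (R 4.3.3, mean-variance trend), for genes with a mean of at least 10, on log2(value + 1), with Benjamini-Hochberg adjustment over 14354 genes. A fold change on this scale understates that of low genes. Members were also tested by two-sided exact permutation over all assignments of 5 and 5 lines, and pairs of genes with 100000 permutations, adjusted over the 11 computed. The value of 1 read came from low values of 4269 genes with 1 transcript (tolerance 0.15). The SDs given for counting cover counting error only. The limma p sets the diet difference against the spread between lines within the diets, moderated over all genes tested. Other steps used Python 3.11.15, pandas 2.3.3 and scipy 1.17.1. The test was tried on simulated data.

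The members and gene lists were chosen with earlier results of these data known. Values in every line were given for members with an unadjusted p under 0.05 or a range of at least 2 (log2) and for the extremes of a domain; of other lists, up to 3 genes in each direction by p, and other imprinted genes with a range of at least 2. Alternatives were pseudocounts of 0.5 and 10, quantile normalization, totals made equal, a mean of at least 100, no filter, array weights, no trend in limma, LPD line 4 and NPD line 15 left out together, and each line left out. The fibroblast sum as a covariate, and Cdkn1c within 7 lines, were added after seeing the data.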

Additional observations from a re-analysis of the deposited data

Results flagged for a closer look

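Of 90 sets of 5 lines examined (each gene or sum within a diet), 3 held a line far from the other 4 by Dixon's test, and chance flags about 1 in 20 such sets. Dlk1 was at 15.7 in NPD line 21, against 30.4 to 39.1 in the other NPD lines. Axl, an imprinted receptor tyrosine kinase gene outside the list, was at 271.9 in LPD line 6, against 33.1 to 50.4 in the other LPD lines. The summed fibroblast markers were at 4608 in LPD line 6, against 739 to 1256 in the other LPD lines.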

How the results depend on the processing

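No paired analysis was possible because the LPD and NPD lines share no line numbers. Of 232 values recomputed under other settings, 201 kept their direction and side of the threshold or, for the 48 of these that are counts or medians, stayed within 1.5 times the count or within the spread. Of 320 with 1 line left out, 255 did, 56 of them counts or medians. The count of members at an unadjusted p under 0.05 (3) was 1, with 1 higher and 0 lower, at a mean of at least 100, where 22 members remain to be counted. The number lower (1) was 0 with array weights, 2 without a trend and 0 without LPD line 4 and NPD line 15. The number with a range of at least 2 (7) was 4 with a pseudocount of 10 and 2 at a mean of at least 100. With 1 line left out the count under 0.05 ran from 1 (without LPD line 4 or 6) to 5 (without LPD line 40), with 1 to 3 higher and 0 to 3 lower, and 0 passed adjustment. The range count ran from 5 to 7, the median SD from 0.40 to 0.45, and the pairs under an adjusted p of 0.05 from 2 to 4 (3 with all lines). Among values near 0, Igf2 turned to 0.0017 with the fibroblast covariate. Cdkn1c (-0.02) turned to 0.19 with array weights, 0.36 with the fibroblast covariate and 0.29 without LPD line 4 and NPD line 15. Plagl1 (0.02) turned to -0.012 after rescaling and to -0.0156 without these 2 lines. The r of Cd81 and Tssc4 (0.06) turned to -0.24 after rescaling. Left-out lines gave -0.31 to 0.32 for Cdkn1c, -0.23 to 0.25 for Plagl1, -0.0254 to 0.49 for Cdkn1c with Phlda2 and -0.0118 to 0.18 for Cd81 with Tssc4. Causes were not tested. Depth limits Zim1, Magel2 and the 4 members under a mean of 10 most, chiefly in LPD lines 4, 6 and 40.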

Other observations

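Among 48 other imprinted genes, 40 were in the table and 30 were tested, with 16 higher and 14 lower in LPD lines, a median log2 fold change of 0.03 and 0 past the adjusted threshold with limma. At an unadjusted p under 0.05, 1 was higher and 1 lower, beside 5.02% of all genes. Dio3, the deiodinase that inactivates thyroid hormone and the distal gene of the Dlk1-Meg3 domain, was at 53.3, 30.4, 214.4, 150.5 and 64.7 in LPD lines 1, 4, 6, 20 and 40, and at 9.01, 11.01, 40.8, 15.3 and 69.6 in NPD lines 8, 15, 21, 36 and 51. NPD line 51 exceeded 3 LPD lines, so the diets overlapped, with a log2 fold change of 1.86 (SE 0.62, unadjusted p = 0.011, adjusted p = 0.839 with limma, exact permutation p = 0.056). Peg12, a gene of the Snrpn-Ndn region, was at 65.0 ± 26.7 (SD, n = 5) with LPD against 99.8 ± 20.6 (SD, n = 5) with NPD, a difference of -0.69 (SE 0.30, unadjusted p = 0.040, adjusted p = 0.982 with limma). It ran from -0.44 without LPD line 1 to -0.88 without LPD line 20. The unadjusted p was above 0.05 without LPD line 1, 4 or 6 or NPD line 8, 15, 36 or 51, without LPD line 4 and NPD line 15 together (-0.61), and with the fibroblast sum as a covariate (-0.59). The difference of Dio3 ran from 1.51 to 2.27 with 1 line left out and was 1.39 with array weights, where its unadjusted p was above 0.05.

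A range of at least 2 on the log2 scale over the lines was found for 8 of these 30 genes, beside 14.1% of all genes. They were Dio3, Peg12, Sfmbt2, Osbpl5, Tspan32, Tnfrsf23, Ampd3 and Axl. All but Sfmbt2 and Ampd3 had means from 10 to 100, where 42.5% of all genes had such a range. Sfmbt2 and Ampd3 had means from 100 to 1000, where 4.99% did. Sfmbt2, a Polycomb gene of the placenta, was highest in NPD line 8 (883), LPD line 6 (872) and NPD line 15 (555), the same 3 lines that were highest for Igf2, and between 191 and 449 in the other lines. Tspan32 lies inside the Kcnq1 cluster, between Ascl2 and Cd81, and Osbpl5 and Tnfrsf23 lie beside it, beyond Nap1l4. Osbpl5 ranged from 17.3 to 102, Tspan32 from 5.13 to 29.95 and Tnfrsf23 from 0 to 24.9. Ampd3, an AMP deaminase gene, ranged from 56.3 to 259.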
